A study of Mus musculus with 32 samples.

Results

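The 36 genes described here, of 55401 gene identifiers counted, encode the tricarboxylic acid (TCA) cycle, the entry of pyruvate and glutamate carbon into it, and the carriers and enzymes that connect it with the cytosol. They were taken by symbol from a list of 7 pyruvate entry genes, 16 genes of the oxidative cycle, 5 genes of glutamate entry and 8 genes of shuttles and side exits. No measured value served as a rule of choice, but the members were chosen with earlier results of these data known. Expression was measured by 3′ RNA sequencing (QuantSeq) in 32 libraries from C57BL/6 mice at 200 days of age. COX10 KO mice lack the cytochrome c oxidase assembly factor COX10 in skeletal muscle, because a floxed Cox10 gene was crossed with a Cre recombinase expressed from Myl1, a gene of fast muscle fibres. CTL mice are labelled as control, and the sources used here do not give their Cox10 and Cre alleles. Calf muscle (gastrocnemius and soleus) and liver came from 6 CTL and 6 COX10 KO mice each, with 3 females and 3 males per genotype by the labels, and hypothalamus from 4 CTL and 4 COX10 KO males. Liver and hypothalamus are therefore tissues of mice whose deletion is driven in muscle.

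In the TCA cycle, acetyl groups are oxidized to carbon dioxide, and the electrons are passed as NADH and FADH2 to the respiratory chain, whose last complex needs COX10. Pyruvate enters mitochondria through the MPC carrier and is either oxidized to acetyl-CoA by pyruvate dehydrogenase or carboxylated to oxaloacetate by pyruvate carboxylase, an anaplerotic step that refills the cycle. Glutamate carbon enters the cycle at α-ketoglutarate through glutamate dehydrogenase or the aspartate and alanine aminotransferases. The malate-aspartate shuttle moves NADH electrons into mitochondria, and citrate, malate and phosphoenolpyruvate are routes by which carbon leaves.

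Libraries held 434494 to 11404800 counts in muscle, 674311 to 16044634 in liver and 3526613 to 22321322 in hypothalamus, and the shallowest was CTL muscle 2. In muscle the median was 2453792 counts in CTL and 6027218 in COX10 KO, so that raw counts of the genotypes are not on the same scale. Levels are given as CPM, counts scaled by the effective library size, and a read marks the 3′ end of an RNA, so that counts do not grow with transcript length. Genotypes were compared by the quasi-likelihood F test of edgeR, with p-values adjusted by Benjamini-Hochberg over every gene tested in that tissue and calls made under 0.05. Each library is taken as 1 mouse. The labels give a sex for each library, but they name no animals, and they do not show which tissues came from the same mice. Cox10 itself measured 47.3 to 145 CPM in CTL and 95.7 to 140 CPM in COX10 KO muscle, with a log2 fold change of 0.09 (SE 0.23, edgeR adjusted p = 0.832), but a 3′ read need not cover the deleted part, so that this level does not check the deletion. In liver, 2 libraries labelled CTL 1 (female) and CTL 4 (male) carried sex-linked transcripts of the other sex. The tissue labels matched their markers: summed fast-fibre markers were 54438 to 210606 CPM in muscle and 1.49 to 30.6 CPM in liver apart from COX10 KO 4 (129 CPM) and COX10 KO 6 (595 CPM), and summed hepatocyte markers were 75672 to 192301 CPM in liver. In hypothalamus, summed neuron markers were 3885 to 5373 CPM, with Tubb3 at 0 in every library.

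The sequences before the start sites of 4 members are given first, because Pck2 and Got1 rose the most of all members in COX10 KO muscle, Me3 was among the members that fell there, and Sdha held the only repeated motif. RefSeq promoters on GRCm38.p6 were matched for 32 of 36 members, and the 250 bases upstream of each start were searched on both strands for TGATGNAA (C/EBP-ATF), NCCGGAAGN (ETS), TNAAGGTCA (ERR) and the NRF1 motif. Each sequence runs 5′ to 3′ on the strand of its gene, with matches in capitals.
Pck2, chr14:55540016-55540265, plus strand: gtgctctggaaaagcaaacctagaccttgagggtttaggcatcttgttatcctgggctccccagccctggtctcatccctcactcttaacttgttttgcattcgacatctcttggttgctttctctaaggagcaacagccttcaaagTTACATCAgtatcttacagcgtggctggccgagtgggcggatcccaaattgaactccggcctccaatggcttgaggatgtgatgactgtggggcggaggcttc
Got1, chr19:43524606-43524855, minus strand: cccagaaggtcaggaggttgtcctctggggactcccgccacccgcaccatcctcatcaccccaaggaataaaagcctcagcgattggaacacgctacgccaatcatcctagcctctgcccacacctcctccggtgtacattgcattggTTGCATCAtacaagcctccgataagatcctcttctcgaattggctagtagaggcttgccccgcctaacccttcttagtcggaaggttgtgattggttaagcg
Me3, chr7:89632568-89632817, plus strand: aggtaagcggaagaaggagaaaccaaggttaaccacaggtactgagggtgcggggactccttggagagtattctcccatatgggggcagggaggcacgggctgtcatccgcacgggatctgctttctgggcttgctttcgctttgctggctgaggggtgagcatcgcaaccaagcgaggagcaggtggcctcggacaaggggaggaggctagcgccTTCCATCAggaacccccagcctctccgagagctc
Sdha, chr13:74350241-74350490, minus strand: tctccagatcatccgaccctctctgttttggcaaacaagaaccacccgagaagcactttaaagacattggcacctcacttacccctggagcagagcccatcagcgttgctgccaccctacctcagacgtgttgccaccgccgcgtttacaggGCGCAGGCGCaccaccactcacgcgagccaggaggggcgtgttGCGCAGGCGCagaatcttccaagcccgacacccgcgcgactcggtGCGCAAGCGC

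The C/EBP-ATF motif was found in the windows of 3 members, Pck2, Got1 and Me3, and in 3.91% of all 27025 genes with a promoter in the table. It was read on the strand opposite to the gene in each. The match began 103 bases before the RefSeq start of Pck2, 102 before that of Got1 and 34 before that of Me3. The printed Me3 window lies within its annotated gene (chr7:89632392-89854359, plus strand). The printed Sdha window overlaps the 5′ end of its annotated gene (chr13:74322254-74350280, minus strand). The NRF1 motif was in Sdha (3 times), Sdhd and Sucla2, against 4.23% of all genes, and the ETS motif in Glud1, Mpc1 and Sdhd, against 7.79%. The ERR motif was in no member window and in 1.3% of all genes. On the same build, Pck2 (ENSMUSG00000040618.7) lies at chr14:55540266-55551242 on the plus strand. Got1 (ENSMUSG00000025190.13) lies at chr19:43499752-43524605 on the minus strand. Pdhb (ENSMUSG00000021748.9) lies at chr14:8165996-8173025 on the minus strand, and Pcx (ENSMUSG00000024892.17) lies at chr19:4510472-4621752 on the plus strand. No match overlapped another in the windows printed, and a match is a run of letters, not a measured binding site.

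In COX10 KO muscle, the pyruvate dehydrogenase genes Pdha1, Pdhb and Dlat and the aspartate aminotransferases Got1 and Got2 rose, Pck2 (mitochondrial phosphoenolpyruvate carboxykinase) rose 4.66-fold, and the carboxylase Pcx and the malic enzyme Me3 fell. Of 35 members tested, 10 rose and 2 fell, where 14.9% of all 10950 genes were called, 7.93% higher and 6.97% lower, and 22 had an unadjusted p under 0.05, as 30.3% of all genes did. The median log2 fold change of the members was 0.41, against 0.01 over all genes, and 29 of 35 were above 0, against 50.9% of all genes. The risers were Pdha1, Pdhb, Dlat, Dlst, Sdha, Glud1, Got1, Got2, Mdh1 and Pck2. All 6 COX10 KO values exceeded the highest CTL value for Pdhb, Dlst, Sdha, Got1, Got2 and Pck2, a pattern shown by 4.7% of all genes, and the opposite pattern, shown by 2.03% of all genes, was found in no member. Sdhd did not pass the expression filter, with 77 counts over the 6 CTL and 66 over the 6 COX10 KO libraries, and was called lower in a fit with no filter. Without a scaling factor, on total counts alone, 16 members rose and 2 fell, and the calls over all genes split into 1219 higher and 470 lower, against 868 and 763 with TMM scaling. Leaving out CTL 3 or CTL 5, 6 members rose, and without CTL 6, 7 rose, while the 2 falls were kept without any single library.

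**Figure D1:**
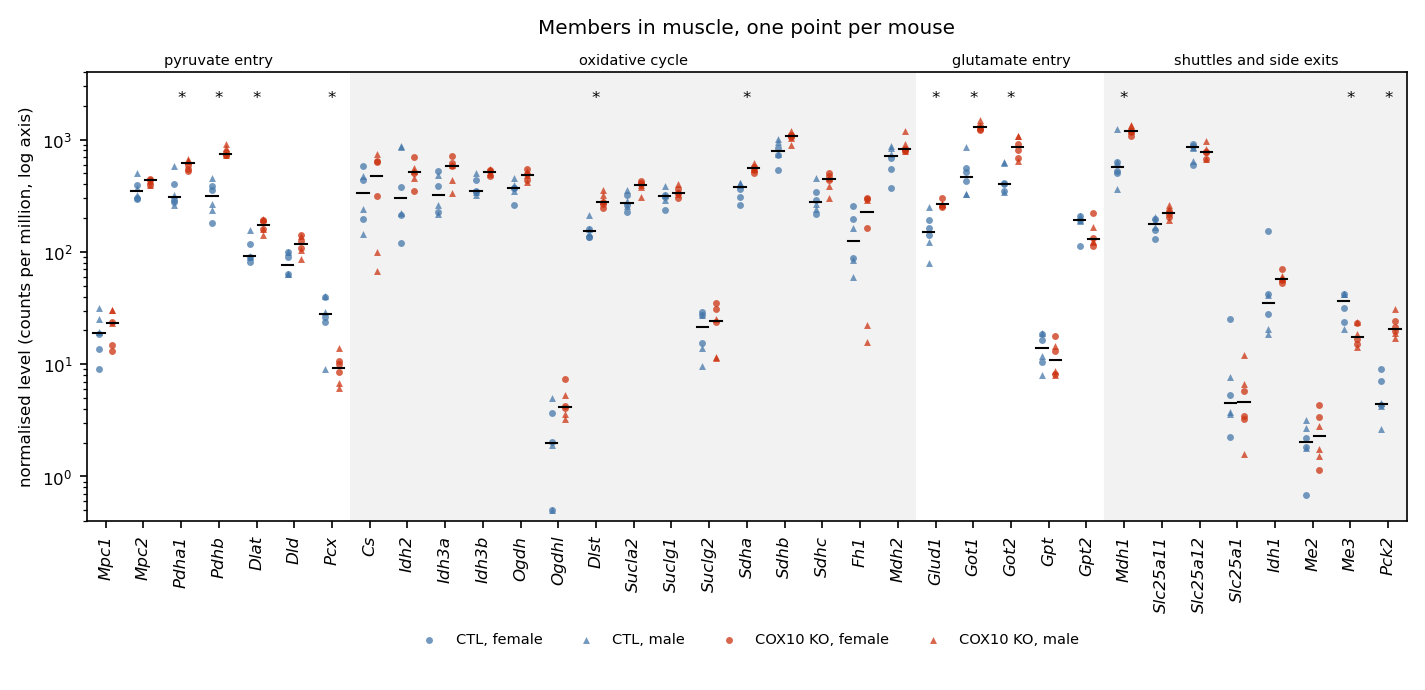
Normalised level of the 35 members tested in muscle (CPM, log axis), with each point 1 mouse (blue CTL, red COX10 KO; circles female, triangles male), each line the median of 6 mice, a level of 0 drawn at 0.5 CPM and an asterisk at each of the 12 members called by edgeR. Red points lie wholly above blue points for Pdhb, Dlst, Sdha, Got1, Got2 and Pck2, and mostly below for Pcx and Me3.

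Of the 7 pyruvate entry genes, 3 rose, all subunits of pyruvate dehydrogenase, and 1, the carboxylase, fell. Pdhb, the E1 beta subunit, measured 180 CPM in the lowest, 312 CPM in the median and 457 CPM in the highest CTL mouse, and 726, 749 and 911 CPM in COX10 KO. The groups did not overlap, and the rise was 2.5-fold (log2 fold change 1.32, SE 0.22, edgeR adjusted p = 0.00124). Pdha1, the E1 alpha subunit, measured 260, 307 and 580 CPM in CTL and 525, 616 and 670 CPM in COX10 KO, and 4 of 6 COX10 KO values exceeded the CTL range. Its rise was 1.70-fold (log2 fold change 0.76, SE 0.20, edgeR adjusted p = 0.0203). Dlat, the E2 acetyltransferase, went from 81.3, 91.6 and 157 CPM to 140, 174 and 197 CPM, a 1.64-fold rise (log2 fold change 0.72, SE 0.19, edgeR adjusted p = 0.0212). Dld, the E3 subunit that pyruvate and α-ketoglutarate dehydrogenase share, had a log2 fold change of 0.55 (SE 0.19) that did not pass (edgeR adjusted p = 0.0631), although 5 of 6 COX10 KO values exceeded the CTL range. The calls of Pdha1 and Dlat were lost without CTL 3, CTL 5 or CTL 6.

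Pcx, pyruvate carboxylase, measured 9.05 CPM in the lowest, 27.9 CPM in the median and 40.1 CPM in the highest CTL mouse, and 6.15, 9.33 and 13.9 CPM in COX10 KO. The fall was 2.93-fold (log2 fold change -1.55, SE 0.32, edgeR adjusted p = 0.0051), and the overlap came from CTL 4 alone, at 9.05 CPM, while the other CTL mice were at 23.7 CPM or more. Mpc1 and Mpc2, the carrier through which pyruvate enters mitochondria, had log2 fold changes of 0.19 (SE 0.22) and 0.22 (SE 0.17), and neither passed. Mpc2 was among the tightest members, at 396 to 446 CPM over the 6 COX10 KO mice.

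Among the 15 tested genes of the oxidative cycle, all log2 fold changes were above 0, from 0.12 to 1.19, where 50.9% of all genes were above 0. The 2 that passed are a share near that of all genes called (14.9%, or 7.93% higher). Dlst, the E2 subunit of α-ketoglutarate dehydrogenase, measured 135, 154 and 215 CPM (lowest, median, highest) in CTL and 248, 279 and 357 CPM in COX10 KO. It rose 1.83-fold (log2 fold change 0.87, SE 0.16, edgeR adjusted p = 0.00239). Sdha, the flavoprotein of succinate dehydrogenase, which is also complex II of the respiratory chain, measured 264, 380 and 415 CPM in CTL and 509, 556 and 617 CPM in COX10 KO. It rose 1.56-fold (log2 fold change 0.64, SE 0.16, edgeR adjusted p = 0.0149), and both genes had no overlap between the genotypes. Ogdh, the E1 subunit of α-ketoglutarate dehydrogenase, measured 262, 373 and 451 CPM in CTL and 421, 488 and 548 CPM in COX10 KO, and its log2 fold change of 0.40 (SE 0.17) did not pass (edgeR adjusted p = 0.123). Sucla2, a succinyl-CoA ligase subunit, measured 226, 275 and 355 CPM in CTL and 310, 397 and 432 CPM in COX10 KO, with a log2 fold change of 0.44 (SE 0.17, edgeR adjusted p = 0.0924). Idh3a, Idh3b, Ogdhl, Sdhb, Sdhc and Mdh2 also had an unadjusted p under 0.05 without passing over all genes, with log2 fold changes of 0.41 to 1.19.

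Cs (citrate synthase) and Fh1 (fumarase) varied more between mice of a genotype than between genotypes. Cs measured 145 to 586 CPM in CTL and 67.1 to 743 CPM in COX10 KO, with a log2 fold change of 0.24 (SE 0.49, edgeR adjusted p = 0.794). Fh1 measured 60.3 to 258 CPM in CTL and 15.7 to 303 CPM in COX10 KO, with a log2 fold change of 0.29 (SE 0.54). The same 2 COX10 KO mice, 4 and 5, were the lowest for both genes, at 67.1 and 99.9 CPM of Cs and 15.7 and 22.5 CPM of Fh1. These errors are near the change of several called members, so that a change of that size was not detectable in Cs or Fh1. Idh2, the mitochondrial NADP-linked isocitrate dehydrogenase, measured 120 to 886 CPM in CTL and 349 to 695 CPM in COX10 KO.

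Of the glutamate entry genes, both aspartate aminotransferases and glutamate dehydrogenase rose, and the alanine aminotransferases did not pass. Got1, the cytosolic aspartate aminotransferase, measured 327, 468 and 857 CPM (lowest, median, highest) in CTL and 1217, 1296 and 1488 CPM in COX10 KO. The rise was 2.61-fold (log2 fold change 1.39, SE 0.23, edgeR adjusted p = 0.00136). Got2, the mitochondrial form, went from 341, 406 and 631 CPM to 650, 863 and 1084 CPM, a 1.91-fold rise (log2 fold change 0.94, SE 0.21, edgeR adjusted p = 0.00737). In both genes the genotypes did not overlap. A pseudogene named Got2-ps1 exists, and reads it shares with Got2 could not be told apart. Glud1, glutamate dehydrogenase, measured 79.2, 151 and 252 CPM in CTL and 251, 265 and 301 CPM in COX10 KO, and 5 of 6 COX10 KO values exceeded the CTL range. Its 1.69-fold rise (log2 fold change 0.76, SE 0.23, edgeR adjusted p = 0.0374) was called in only 2 of the 12 fits that leave out 1 library, those without CTL 2 or CTL 4, and its adjusted p was 0.00484 to 0.277 over all its edgeR and DESeq2 alternatives.

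Gpt2, the mitochondrial alanine aminotransferase, measured 113, 193 and 208 CPM in CTL and 112, 129 and 223 CPM in COX10 KO. Its log2 fold change of -0.33 (SE 0.21) did not pass (edgeR adjusted p = 0.303). The low end of the CTL range was CTL 2 alone, from 62 counts, while the other CTL mice were at 189.2 CPM or more. Of the 6 COX10 KO values, 1 lay above and 1 below the CTL range. Gpt, the cytosolic form, measured 7.98, 14.1 and 18.9 CPM in CTL and 8.04, 10.95 and 17.7 CPM in COX10 KO, with a log2 fold change of -0.22 (SE 0.28, edgeR adjusted p = 0.648). Neither gene was called in any alternative fit, and both estimates stayed below 0 in all of them.

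Among shuttles and side exits, Pck2, which turns mitochondrial oxaloacetate into phosphoenolpyruvate, had the largest rise of all members. It measured 2.62, 4.40 and 9.10 CPM (lowest, median, highest) in CTL and 17.0, 20.6 and 31.3 CPM in COX10 KO, from 80 and 853 counts over the 6 libraries of each genotype. The log2 fold change was 2.22 (SE 0.28, edgeR adjusted p = 1.05e-04), and it passed in all 23 alternative fits that tested it, each sex alone included. Mdh1, the cytosolic malate dehydrogenase of the malate-aspartate shuttle, measured 366, 575 and 1235 CPM in CTL and 1071, 1202 and 1341 CPM in COX10 KO. It rose 1.89-fold (log2 fold change 0.92, SE 0.24, edgeR adjusted p = 0.0192), where CTL 4, at 1235 CPM, was within the range of COX10 KO and the other CTL mice were at 635 CPM or less, and the call was lost without CTL 3 or CTL 5. The carriers of the shuttle did not pass: the log2 fold change was 0.37 (SE 0.16) for Slc25a11, the malate-α-ketoglutarate carrier, and -0.02 (SE 0.18) for Slc25a12, the aspartate-glutamate carrier Aralar, with 589, 854 and 907 CPM in CTL and 668, 772 and 963 CPM in COX10 KO (edgeR adjusted p = 0.965). An annotated small gene, Gm22990, overlaps Mdh1 on the same strand, and other annotated genes overlap Me3, Cs, Idh2 and Mpc2 in that way.

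Me3, a mitochondrial NADP-linked malic enzyme, fell 1.83-fold, from 20.7, 36.8 and 42.2 CPM in CTL to 14.3, 17.6 and 23.6 CPM in COX10 KO (log2 fold change -0.88, SE 0.23, edgeR adjusted p = 0.0201), and 4 of 6 COX10 KO values lay under the CTL range. Me2, another mitochondrial malic enzyme, was at 0.681 to 4.37 CPM in muscle, and Slc25a1, the citrate carrier, at 1.59 to 25.5 CPM, and neither passed. Idh1, the cytosolic NADP-linked isocitrate dehydrogenase, measured 52.8 to 69.9 CPM in COX10 KO and 18.7 to 155 CPM in CTL. The highest CTL value was that of CTL 2, and without that library Idh1 passed with a log2 fold change of 0.94 (adjusted p = 0.0105, and 0.0105 to 0.836 over all its edgeR and DESeq2 alternatives).

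The other genes of these pathways were counted from a list of 35 that holds no member. Of 29 tested in muscle, 4 rose and 1 fell, a share near the 14.9% called over all genes. Pdk4, the kinase that inactivates pyruvate dehydrogenase, measured 22.9, 48.7 and 116 CPM (lowest, median, highest) in CTL and 65.1, 376 and 693 CPM in COX10 KO. It rose 6.25-fold (log2 fold change 2.64, SE 0.50, edgeR adjusted p = 0.00301), and 5 of 6 COX10 KO values exceeded the CTL range. Pdhx, the component that anchors E3 to pyruvate dehydrogenase, rose 1.76-fold, with no overlap between the genotypes (edgeR adjusted p = 0.00584). Slc38a2, a glutamine transporter, rose 1.72-fold, and Me1, the cytosolic malic enzyme, fell by 0.74 on the log2 scale (edgeR adjusted p = 0.0353 and 0.0395). The calls of Slc38a2 and Me1 were lost in 12 and 13 of 24 alternative fits.

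A list of 15 genes of mitochondrial import and of the outer and inner membranes was chosen to read the members against other mitochondrial genes. Its median log2 fold change was 0.40 in muscle, close to the 0.41 of the members. Of these 15, Phb2, Tomm22, Tomm70a and Vdac2 rose and none fell. No test of the members against that list was made.

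Markers of other cells and fibre types moved with the genotype in muscle. Of 10 macrophage markers tested, Cd68, C1qa, Lyz2 and Ctss rose, and the summed level of all 12 was 129 to 413 CPM in CTL and 266 to 617 CPM in COX10 KO. Of 11 fast-fibre markers, 6 fell, with summed levels of 66819 to 210606 CPM in CTL and 54438 to 98862 CPM in COX10 KO. Myl1, from which the Cre recombinase is expressed, was among those that fell, and the part of that allele was not tested. Of 7 regenerating-muscle markers tested, 6 rose, with 32.7 to 56.2 CPM summed in CTL and 270 to 414 CPM in COX10 KO. No slow-fibre marker of 7 passed, but their sum reached 7829 CPM in CTL 4 and 17064 CPM in CTL 5, against 338 to 5504 CPM in the other libraries. CTL 2 held the highest adipocyte (5360 CPM) and hepatocyte (2234 CPM) sums. The part of these cells and fibres in the members' changes was not tested, and in bulk tissue fewer cells of a type and less RNA per cell cannot be told apart. With CTL 2 and COX10 KO 6 left out together, 9 members rose and 2 fell.

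Summed over each step and scaled over all 32 libraries together, the pyruvate entry genes measured 1065 to 2222 CPM in CTL and 2233 to 2691 CPM in COX10 KO muscle. The oxidative cycle measured 3962 to 7944 and 6609 to 8131 CPM, glutamate entry 1098 to 2340 and 2764 to 3366 CPM, and shuttles and side exits 1480 to 2894 and 2374 to 3218 CPM. The genotypes did not overlap for pyruvate entry and glutamate entry and overlapped for the other steps. A sum is led by its most abundant genes, and no test was made on it.

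In CTL mice the summed genes of the cycle were highest in muscle. The summed oxidative cycle was 3962 to 7944 CPM in muscle, 1774 to 3252 CPM in liver and 994 to 1309 CPM in hypothalamus, with no overlap between the tissues. Glutamate entry overlapped between liver (1468 to 4230 CPM) and muscle (1098 to 2340 CPM), and hypothalamus was lowest, at 422 to 816 CPM. In the fit of all 32 libraries, 15 members were higher and 6 lower in CTL muscle than in CTL liver, where 28.8% and 26.7% of all 15154 genes were. Against CTL hypothalamus, 27 members were higher and 4 lower in CTL muscle (26.6% and 37.4% of all genes), and 22 were higher and 6 lower in CTL liver (29.4% and 40% of all genes). The median of all genes lay at -0.28 and -0.26 (log2) in these comparisons with hypothalamus, and that of the members at 1.97 and 1.19.

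**Figure D2:**
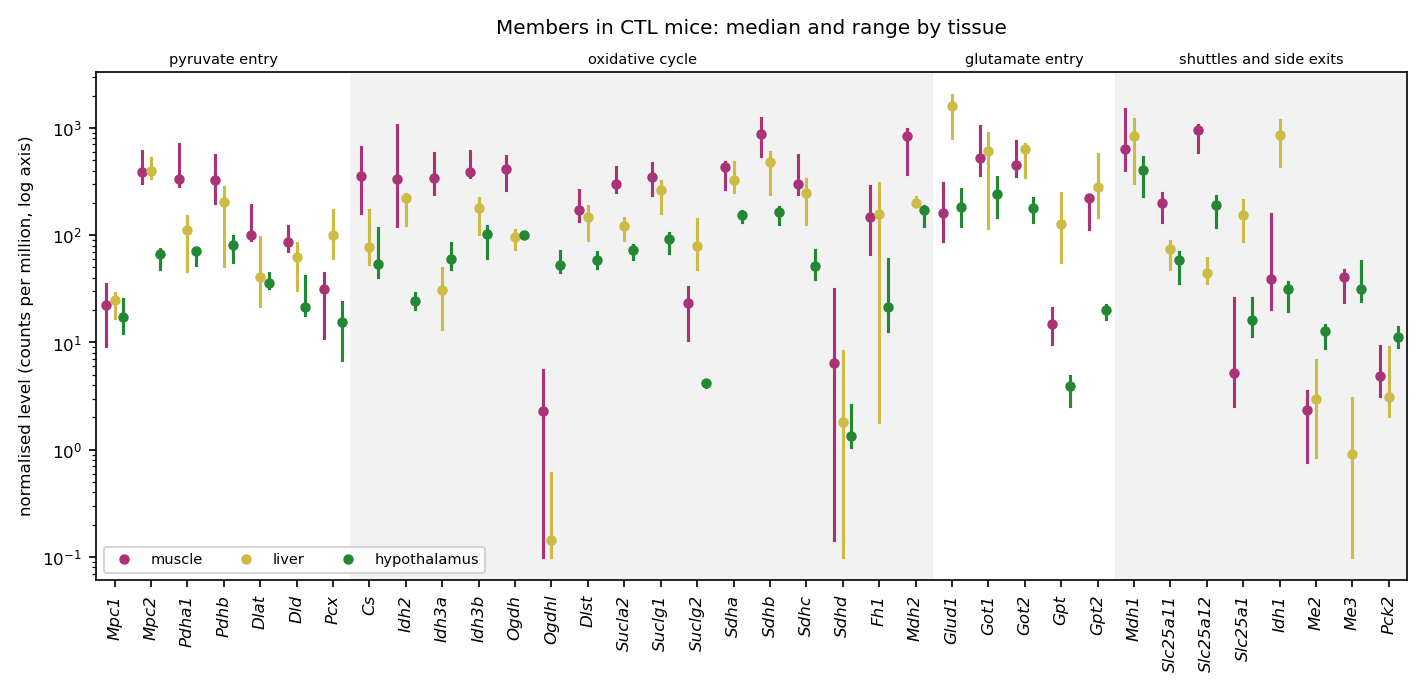
Normalised level of the 36 members in CTL mice (CPM scaled over all 32 libraries, log axis), with the median as a point and the lowest to highest mouse as a line, for muscle (n = 6), liver (n = 6) and hypothalamus (n = 4), and levels under 0.1 CPM drawn at 0.1. Muscle is highest for most of the oxidative cycle, liver for Glud1, Gpt, Idh1 and Slc25a1, and hypothalamus for Ogdhl and Me2.

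Slc25a12 had the smallest p of the members between muscle and liver, at 599 to 1057 CPM against 35.5 to 61.7 CPM in liver and 120 to 232 CPM in hypothalamus, and was 18.8-fold higher than in liver (edgeR adjusted p = 3.93e-15). Idh3a and Ogdh, of the irreversible steps of the cycle, were 11.7-fold and 4.32-fold higher in muscle than in liver (edgeR adjusted p = 6.40e-10 and 3.68e-11). Against hypothalamus, muscle was 18.8-fold higher in Idh2, 6.35-fold in Mpc2, 4.10-fold in Ogdh and 4.43-fold in Sucla2 (edgeR adjusted p = 5.64e-09, 1.94e-10, 1.99e-09 and 4.42e-09). Glud1 marked liver, at 797 to 2019 CPM, where muscle had 88.1 to 307 CPM and hypothalamus 123 to 270 CPM, an 8.05-fold difference between liver and muscle (edgeR adjusted p = 9.93e-10). The order of Glud1 was liver above the other tissues, and muscle and hypothalamus did not differ beyond their spread (log2 difference -0.09, SE 0.33). Gpt was 38.7-fold, Suclg2, the GTP-linked succinyl-CoA ligase subunit, 19.5-fold and Mpc2 6.38-fold higher in liver than in hypothalamus (edgeR adjusted p = 1.43e-11, 1.78e-10 and 1.16e-10).

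Related genes of a step differed in their tissue. Ogdhl, a relative of Ogdh, measured 45.7 to 71.3 CPM in hypothalamus and 0 to 5.50 CPM in muscle, and only 3 counts were found over the 6 CTL liver libraries (edgeR adjusted p = 1.88e-10 between muscle and hypothalamus). Ogdh itself was at 94.9 to 105 CPM in hypothalamus, 75.1 to 113 CPM in liver and 266 to 549 CPM in muscle. Me3 was at 24.04 to 47.0 CPM in muscle and 24.1 to 56.9 CPM in hypothalamus, which did not differ beyond their spread, and at 0 to 3.02 CPM in liver, from 17 counts over 6 libraries (edgeR adjusted p = 3.30e-11 between muscle and liver and 4.43e-11 between liver and hypothalamus). Pck2 was highest in CTL hypothalamus, at 8.98 to 13.8 CPM, where CTL muscle measured 3.19 to 9.25 CPM and CTL liver 2.05 to 9.07 CPM, and muscle and liver did not differ (log2 difference 0.30, SE 0.36).

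In liver, no member passed. Of 32 tested, 0 were called by edgeR and 2 had an unadjusted p under 0.05, where 0.0882% of all 9072 genes were called and 4.62% had such a p, and DESeq2 also called 0 members. Their log2 fold changes had a median of 0.23, against -0.02 over all genes, and 21 of 32 were above 0, where 47.6% of all genes were. Ogdhl, Sdhd, Me2 and Me3 did not pass the expression filter. Mdh2, mitochondrial malate dehydrogenase, had the smallest p. It measured 162, 174 and 193 CPM (lowest, median, highest) in CTL and 174, 245 and 605 CPM in COX10 KO. The 605 CPM was that of COX10 KO 3, the shallowest liver library (674311 counts), and the next COX10 KO value was 263.9 CPM. For Mdh2, 5 of 6 COX10 KO values exceeded the CTL range, with a log2 fold change of 0.72 (SE 0.29, edgeR adjusted p = 0.968). Pcx measured 52.4, 85.8 and 145 CPM in CTL and 43.0, 170 and 283 CPM in COX10 KO, where 4 of 6 COX10 KO values exceeded the CTL range and 1 lay under it (log2 fold change 0.83, SE 0.37, edgeR adjusted p = 0.998). Idh1 measured 380, 744 and 993 CPM in CTL and 47.9, 465 and 787 CPM in COX10 KO (log2 fold change -0.84, SE 0.46). Gpt, which supplies pyruvate from alanine in liver, measured 49.1, 107 and 208 CPM in CTL and 74.0, 181 and 352 CPM in COX10 KO, and its log2 fold change of 0.50 (SE 0.42, edgeR adjusted p = 0.998) did not pass, with 3 of 6 COX10 KO values within the CTL range. Of the 29 other pathway genes tested, 0 were called and 2 had an unadjusted p under 0.05. The SE of the members was between 0.22 and 0.88 in liver, so that changes of the size called in muscle were often not detectable there. Of 11 macrophage markers tested, 8 had an unadjusted p under 0.05 and a negative estimate, and their summed level was 320 to 1275 CPM in CTL and 205 to 509 CPM in COX10 KO liver. The part of these cells was not tested. COX10 KO 6, which stood apart in fast-fibre markers, was the highest COX10 KO mouse for Pdhb, Dlst and Got1. Without it, Pdhb in liver had a log2 fold change of -0.35, Dlst in liver one of 0.06 and Got1 in liver one of -0.01, against -0.13, 0.26 and 0.34 with it, the median of the members was 0.09, and 0 members were called. The part of muscle RNA was not tested. Without COX10 KO 3, the median of the members was 0.12, and 0 members were called. Without the libraries labelled CTL 1 and CTL 4, 0 members were called.

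In hypothalamus, no member of 35 tested passed in edgeR or DESeq2, and 0 of 13504 genes were called (0%). Only Idh2 had an unadjusted p under 0.05, as 1.56% of all genes did. It measured 30.8, 42.7, 43.7 and 33.3 CPM in CTL 1 to 4 and 41.2, 53.9, 47.6 and 60.2 CPM in COX10 KO 1 to 4, and 3 of 4 COX10 KO values exceeded the CTL range (log2 fold change 0.43, SE 0.20, edgeR adjusted p = 1.00). Idh1 measured 29.4, 42.9, 52.1 and 58.2 CPM in CTL and 25.0, 28.9, 39.8 and 39.0 CPM in COX10 KO in the same order (log2 fold change -0.45, SE 0.24). Idh3a measured 95.2, 73.8, 87.4 and 133 CPM in CTL and 75.5, 65.8, 77.2 and 86.5 CPM in COX10 KO (log2 fold change -0.35, SE 0.20). For Idh1 and Idh3a the groups overlapped. Ogdh was the only member whose COX10 KO values (129 to 141 CPM) all lay under its CTL values (144 to 165 CPM), as 0.733% of all genes did, with a log2 fold change of -0.20 (SE 0.16). The median log2 fold change of the members was -0.03, with 14 of 35 above 0, where 47.5% of all genes were, and of the 33 other pathway genes tested 0 were called. With the replicate number as a block, 0 members were called in edgeR, 4 had an unadjusted p under 0.05, and the lowest adjusted p was 0.443, for Idh1. Of the hepatocyte marker list only Ttr, which choroid plexus also makes, was tested there, and the summed list was 1232 to 2821 CPM in CTL and 3155 to 5274 CPM in COX10 KO. Of 8 hypothalamic neuron markers, 4 had an unadjusted p under 0.05 and none passed (edgeR adjusted p = 1.00). Agrp had a log2 fold change of 1.75, Npy 1.13, with all 4 COX10 KO values over the CTL range, Avp -0.996 and Oxt -1.34, and the summed list was 680 to 1594 CPM in CTL and 678 to 1875 CPM in COX10 KO. The part of these cells was not tested.

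**Figure D3:**
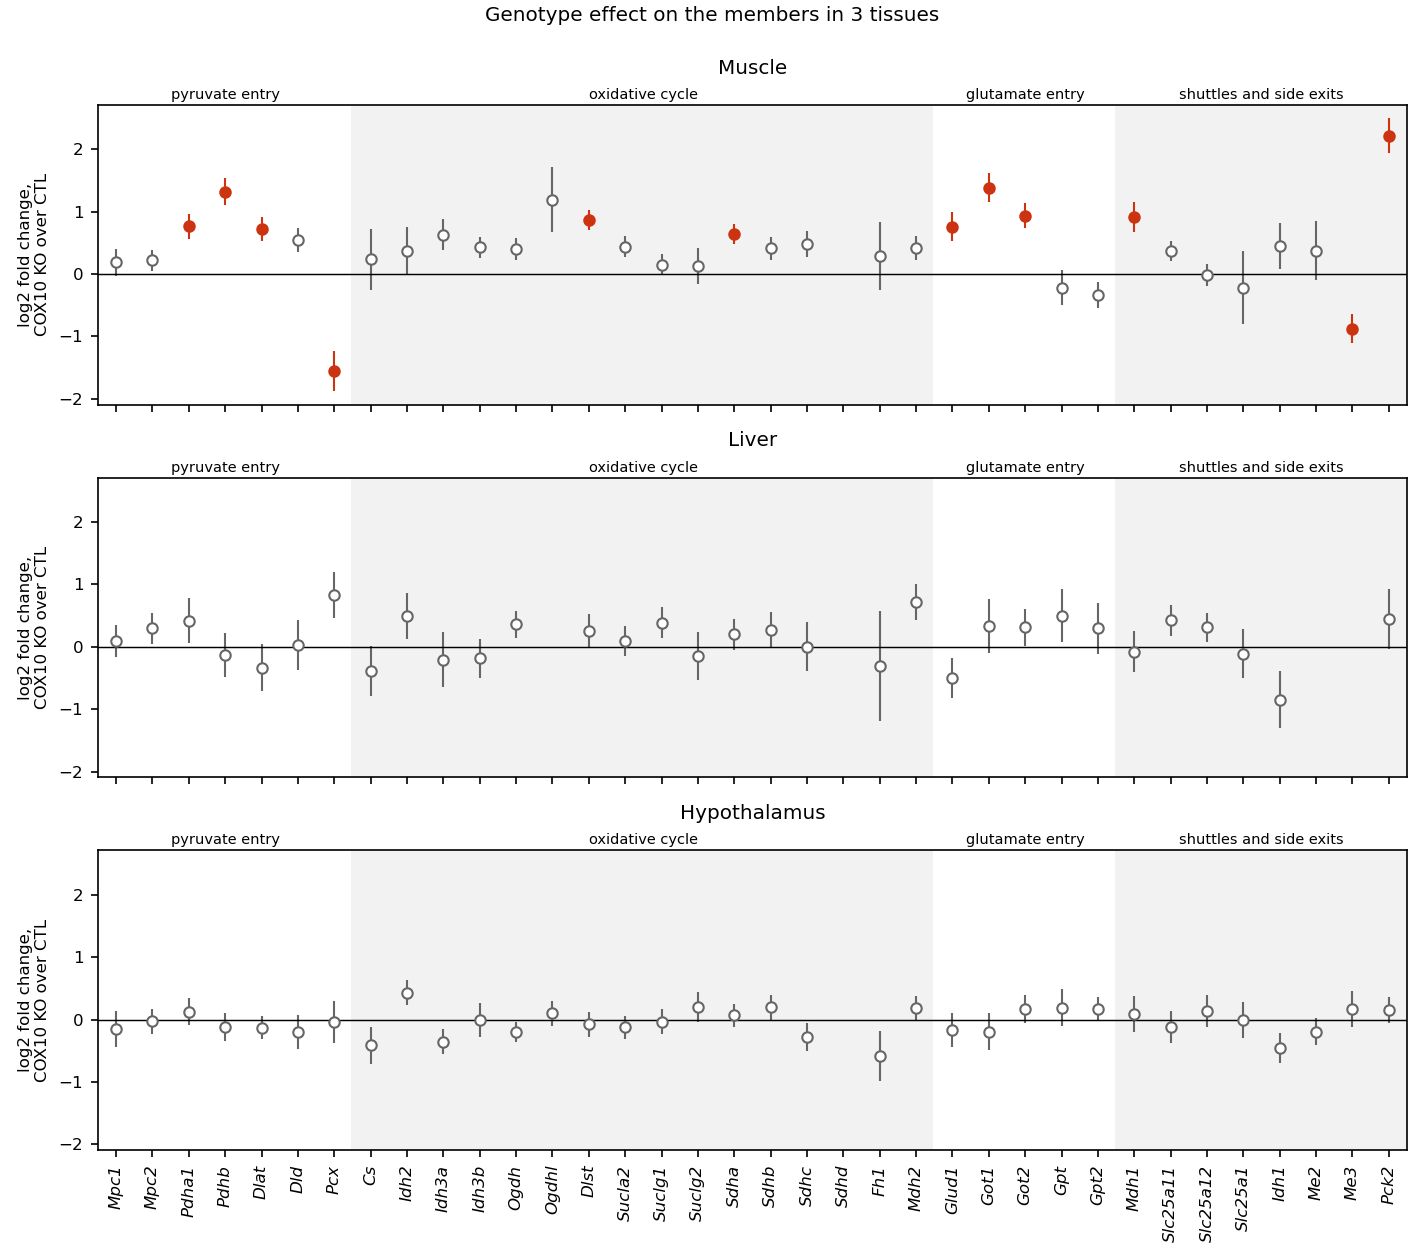
Log2 fold change of COX10 KO over CTL for each member in muscle, liver and hypothalamus (points, with bars of 1 SE from edgeR), filled red where the adjusted p was under 0.05 and open otherwise, with no point where a gene did not pass the expression filter. All 12 red points are in muscle, and the points of hypothalamus lie between -0.58 and 0.43.

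The difference in genotype effect between tissues was tested for all members in the joint fit. Between muscle and liver it passed for Pdhb, Pck2 and Pcx, where 2.83% of all genes passed. The effect on Pcx was 2.33 lower on the log2 scale in muscle than in liver (SE 0.50, edgeR adjusted p = 0.00766), since Pcx fell in muscle and had a positive estimate in liver. The effect on Pck2 was 1.78 higher (SE 0.49, edgeR adjusted p = 0.0417) and that on Pdhb 1.49 higher in muscle (SE 0.41, edgeR adjusted p = 0.0429). The call of Pcx held in 37 of 38 alternatives and was lost in males alone (edgeR adjusted p = 0.294), whereas that of Pdhb held in 18 of 38 and that of Pck2 in 11 of 37. Males were taken by label, which the sex-linked transcripts of liver CTL 4 did not match, so that this loss cannot be read as a result of males. Without COX10 KO liver 6, Pdhb passed (1.75, edgeR adjusted p = 0.00981), Pcx passed and Pck2 did not (1.59, edgeR adjusted p = 0.0687). Between muscle and hypothalamus it passed for Pck2 alone of the members, at 2.08 (SE 0.48, edgeR adjusted p = 0.0206), where 0.891% of all genes passed, and the call was lost without CTL 3, CTL 4 or COX10 KO 1, 2 or 3 of hypothalamus (edgeR adjusted p up to 0.0697). The next smallest p among members were those of Pdhb (1.45, SE 0.46, adjusted p = 0.149), Dlst (0.96), Got1 (1.58) and Pcx (-1.47) for hypothalamus, and of Glud1 (1.30, SE 0.42, adjusted p = 0.085) and Dlat (1.09) for liver, all from edgeR. Between liver and hypothalamus 0 genes passed in edgeR (562, or 3.71%, at an unadjusted p under 0.05, and 5 called in DESeq2), and 0 members had an unadjusted p under 0.05. For the other members called in muscle, a smaller effect in liver or hypothalamus was therefore not shown. The 2 comparisons with muscle share its 12 libraries. The joint fit had no term for mouse, so that tissues that may come from the same mouse were treated as independent.

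**Figure D4:**
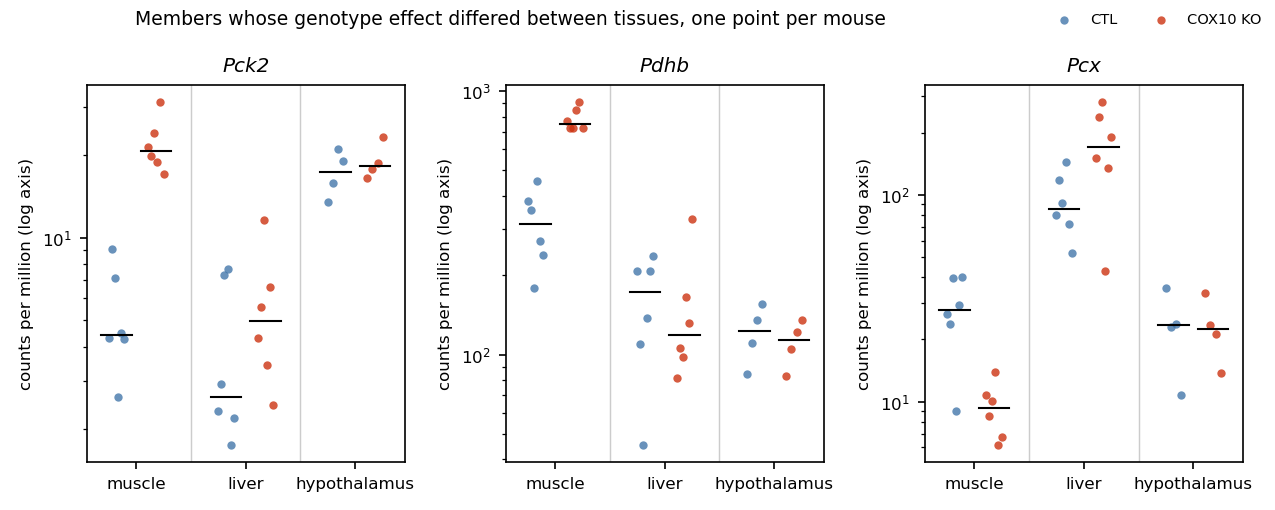
Level of Pck2, Pdhb and Pcx in each mouse (CPM scaled within each tissue, log axis; blue CTL, red COX10 KO; lines are medians), for 6 mice per genotype in muscle and liver and 4 in hypothalamus, so that heights are compared within a tissue only. COX10 KO muscle stands above CTL for Pck2 (17.0 to 31.3 against 2.62 to 9.10 CPM) and Pdhb, and below it for Pcx except for 1 CTL mouse, whereas the genotypes overlap in liver and hypothalamus.

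The genotype effect was also compared between the sexes in muscle and liver. No gene passed that interaction in edgeR (0 of 12065 genes in muscle and of 10030 in liver, with 3.8% and 1.23% at an unadjusted p under 0.05). DESeq2 called 0 members in either tissue. The liver interaction was fitted on labelled sex, which the sex-linked transcripts of CTL 1 and CTL 4 did not match. It therefore cannot speak to a difference between the sexes in liver. Of the members only Idh2 in muscle had an unadjusted p under 0.05 (male minus female log2 difference -1.48, SE 0.66, edgeR adjusted p = 1.00). With 3 mice per sex and genotype, Pdhb in muscle had log2 fold changes of 1.24 in females and 1.36 in males that missed the threshold (edgeR adjusted p = 0.0552 and 0.0561), and Got1 in muscle rose in females (1.30, edgeR adjusted p = 0.0225) and had a log2 fold change of 1.43 in males that missed it (edgeR adjusted p = 0.0894, and 1.78e-07 to 0.0894 over its alternatives).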

How the data were processed

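QuantSeq FWD 3′ libraries of muscle, liver and hypothalamus were sequenced single-end. The authors trimmed the reads (BBDuk), mapped them with STAR 2.5.0a on GRCm38.p6 and used HTSeq 0.6.1 to obtain gene counts, which were deposited without normalization. Whether that counting used strand is not given in the sources used here, so that reads of antisense neighbours, which 13 members have, could not be told apart. Among these are the called members Pdha1, Pcx, Sdha, Got2, Mdh1, Me3 and Pck2. Each tissue was filtered with filterByExpr by genotype (minimum count 10), scaled by TMM and fitted with edgeR 4.0.16 (quasi-likelihood F test, Benjamini-Hochberg over all genes), adding a sex term except in hypothalamus. Differences between tissues came from 1 fit of all 32 libraries, with no term for mice that may have given several tissues. DESeq2 1.42.0 and other filters, scalings and sample sets were alternatives, and the code was tested on simulated data. Deviations of hypothalamus libraries of the same number correlated at r = 0.204 to 0.805, against a highest r of 0.002 to 0.469 with another number. Number 1 stood out (0.805 against 0.002), while number 3 was closer to another number (0.395 against 0.469). The block is given beside its results. Members and lists were chosen with earlier results of these data known. Full values are given for called members, in muscle also for those whose protein the study measured, elsewhere for the 3 members with the smallest p and Gpt in liver, for called pathway genes (1 of them is not reported here), and for the 5 members with the smallest p between tissues. P-values measure the spread between libraries.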

Additional observations from a re-analysis of the deposited data

Results flagged for a closer look

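A single library stood apart from the others of its group in 17 of 204 groups tested (8.33%). Chance gives about 1 in 20 for normally distributed values, which CPM were not shown to be, so that no excess over chance is read from this share. In COX10 KO liver 3 this concerned 6 members, Mpc1 at 44.61, Idh2 at 613, Sdha at 502.3, Mdh2 at 604.7, Slc25a11 at 138.8 and Slc25a1 at 304 CPM, each the highest of its group. COX10 KO liver 6, whose fast-fibre markers summed to 595 CPM, was highest for Pdhb at 326.4, Dlst at 254.1 and Got1 at 1446 CPM. CTL muscle 2, the shallowest library, was highest for Idh1 at 154.6 and Slc25a1 at 25.47 CPM and lowest for Gpt2 at 112.8 CPM. CTL muscle 4 was highest for Dlst at 215.3 and Mdh1 at 1235 CPM. In COX10 KO muscle, Mdh2 reached 1186 CPM in mouse 4, Glud1 301 CPM in mouse 3 and Got1 1488 CPM in mouse 6.

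The genotype effect differed between muscle and liver by 1.495 for Pdhb, by -2.328 for Pcx and by 1.779 for Pck2 (log2, muscle minus liver), and between muscle and hypothalamus by 2.076 for Pck2, by the edgeR test of the difference.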

How the results depend on the processing

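In muscle, 10 members rose and 2 fell. Females alone gave 2 higher, males alone 1 higher and 0 lower, and total counts without TMM 16 higher. Leaving out each library gave 6 to 14 higher and 2 to 3 lower. Members that differed more in muscle than in liver numbered 2 higher and 1 lower: with relative log expression factors, in males alone, or without liver CTL 1 and CTL 4, 0 were higher, with at least 10 counts in every library or without sex terms 1 was, in males alone 0 were lower, and leaving out each library gave 0 to 3 higher. Against hypothalamus 1 was higher, 0 with at least 10 counts in every library, and 0 to 1 when each library was left out. That filter, which tests fewer genes, also left 0 members lower in CTL muscle than in hypothalamus, and 13 higher and 2 lower in CTL liver. The cause of the other changes was not tested. In liver, males alone were taken by label, which the sex-linked transcripts of CTL 4 did not match. No called result changed direction in the alternatives run. In liver and hypothalamus 0 members were called under any alternative. Over all genes, females alone called 163 higher and 134 lower in muscle and males alone 157 and 124, and in liver DESeq2 called 23 and 39 and no filter 57 and 118, against 1 and 7. The median of the members in males alone was 0.26 in muscle.

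Same-numbered libraries did not deviate together in muscle or liver (r = -0.165 to 0.137 and -0.342 to 0.211), and with the number as a replicate block 10 members rose and 2 fell in muscle and 0 were called in liver. In hypothalamus, where they did most clearly for number 1, the block called 0 members and 2 genes in all. The muscle library CTL 2 held 434494 counts, so that low members such as Pck2, Me2 and Slc25a1 rest on few counts there.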
